A study of Homo sapiens with 4 samples.

Results

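Lysosome and autophagy genes were examined in TPC1 cells after 24 h of RET inhibition with or without FGFR inhibition. The set holds 47 names, chosen by name and function with earlier results of these data known. It comprises 3 transcription factors of the MiT/TFE family, 6 lysosomal membrane proteins and 20 lysosomal hydrolases and their cofactors. The rest are 5 subunits of the vacuolar proton pump (V-ATPase) and 13 autophagy genes. Of the 47 names 46 matched the gene column of the deposited table of 20372 genes. The name CTSL2 did not match. Its current symbol in RefSeq is CTSV, and that gene is described on its own and kept out of the counts.

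TPC1 is a cell line from a papillary thyroid carcinoma in which the RET kinase is fused to CCDC6. One group received the RET inhibitor BLU6864 (RETi, 2 libraries), and the other received BLU6864 together with BGJ398, an inhibitor of the FGF receptors (RETi + FGFRi, 2 libraries). Both groups thus carried BLU6864, so the comparison asks how these transcripts differ when FGFR is blocked on top of RET, and untreated cells were not analysed here. The labels put the inhibitors at 100 µM whereas the study's methods use nanomolar units, which leaves the dose uncertain. Separate cultures are not named for the replicates, and p-values therefore reflect only the variation among these 4 libraries, possibly technical in origin.

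Lysosomes are acidic organelles that break down protein, glycans and lipids. The V-ATPase pumps protons into them, membrane proteins such as LAMP1 and LAMP2 line them, and soluble hydrolases do the digestion. Autophagy wraps cytoplasm in a double membrane, with lipidated proteins on it, and delivers it to the lysosome. TFEB, TFE3 and MITF bind the promoters of many of these genes, and the kinases mTORC1 and ERK are known to hold TFEB in the cytoplasm. Their activity depends on phosphorylation and localisation, which were not measured here.

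Libraries held 24695040 to 27457040 counts, and the filter on low counts kept 12794 genes for testing. PAX8, the thyroid transcription factor, stood at 18290 to 20771 normalised counts, whereas NKX2-1 and TSHR had at most 1.01 and the epithelial genes EPCAM and CDH1 at most 2.88. The keratin genes KRT7, KRT8 and KRT18 were present and fell, and the summed level of 6 epithelial markers was 3284 to 3299 after RETi and 2251 to 2557 after RETi + FGFRi. The part of that difference in the results for lysosome genes was not tested. The summed level of 3 macrophage markers (CD163, CSF1R, MRC1), which would mark another cell type rich in lysosomes, was 3.02 to 8.47 normalised counts, with CD163 and MRC1 at 0. Bulk RNA does not separate less RNA per cell from fewer cells of a kind. Levels are deposited normalised counts (raw counts divided by 1 factor per library), given as mean ± SD over 2 libraries or per library, and fold changes are RETi + FGFRi over RETi. Tests are edgeR quasi-likelihood F-tests on raw counts, two-sided, with Benjamini-Hochberg adjustment over the 12794 genes, and a gene is said to rise or fall at an adjusted p under 0.05.

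These genes did not move as a block. Of 45 tested members 6 rose, 8 fell and 31 did not pass. That is 31.1% called, beside 24.1% of all tested genes. The share that rose, 13.3%, stood beside 12.8% of all genes, and the share that fell, 17.8%, beside 11.3%. Because the list was chosen with earlier results known, these shares only describe it, and their difference was not tested. The median log2 fold change of the members was -0.063, against 0.00043 over all genes, and 32 of the 45 were within 0.25 of 0 on the log2 scale. A change over 0.5 in size was found for 3 of them, CTSB, CTSZ and ATP6V0E1, while 8.28% of all genes passed with such a change. Fewer members passed when either RETi replicate was left out, and so did fewer of all tested genes. The loss of calls in those fits was thus not particular to the members, but this does not hold for every setting. With the length and GC trend described below removed, 5 members rose and 7 fell. Over all genes 1566 rose and 1730 fell there, beside 1643 and 1446 in the main test.

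**Figure D1:**
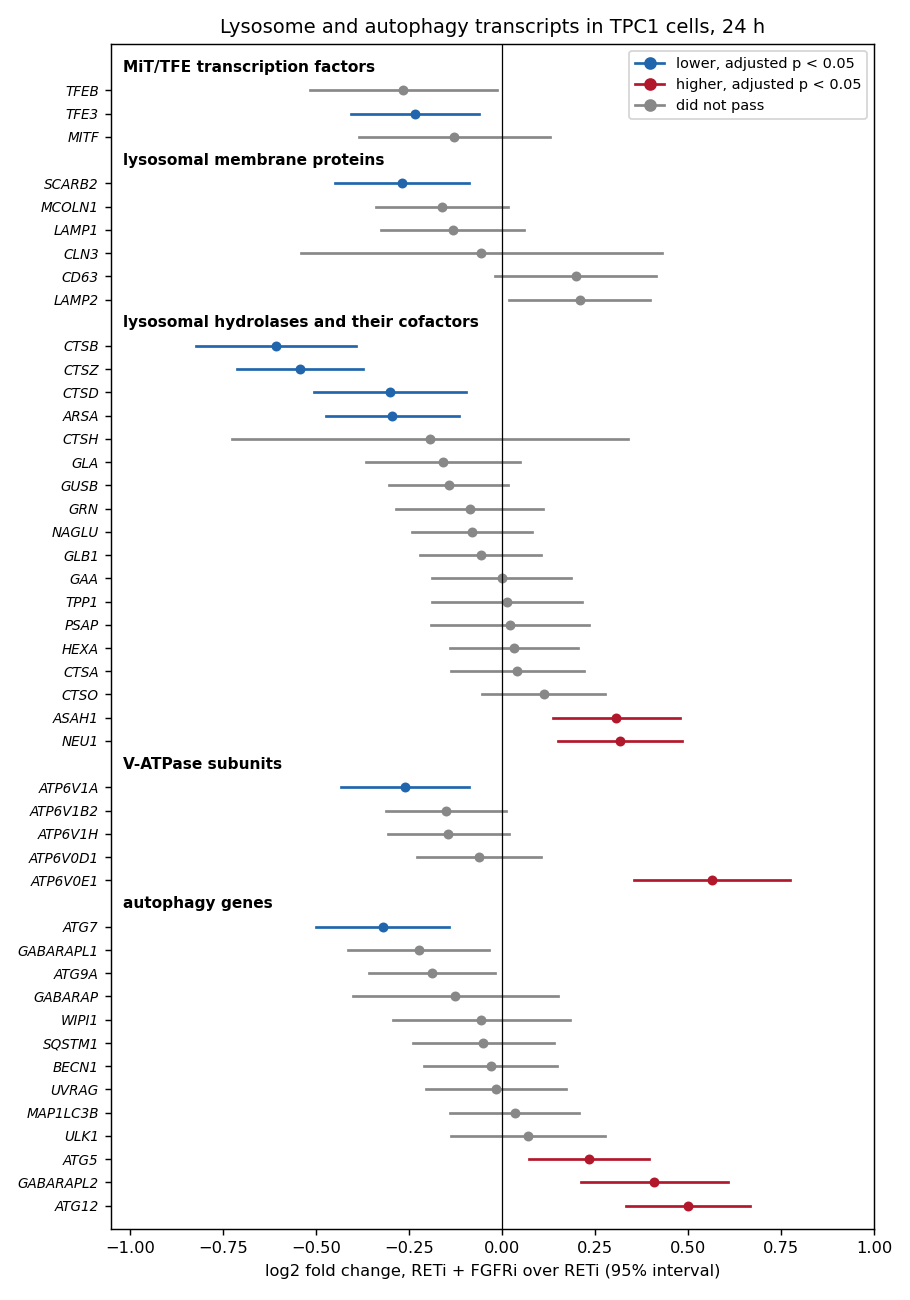
Log2 fold change of the 45 tested lysosome and autophagy genes (x axis, RETi + FGFRi over RETi), ordered by role. Points are edgeR estimates and lines their 95% intervals; 8 genes in blue fell, 6 in red rose and 31 in grey did not pass, and each large role holds intervals on both sides of 0.

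The cathepsins CTSB and CTSZ gave the largest falls. CTSB encodes cathepsin B, a cysteine protease of the lysosome (ENSG00000164733, chromosome 8, 11700033 to 11726957, hg19). Its normalised counts were 102595 and 102359 in the RETi libraries and 68966 and 65821 in the RETi + FGFRi libraries. The groups were far apart for this gene, and each pair of libraries lay close together. The change was -0.61 on the log2 scale (edgeR, SE 0.098, adjusted p = 0.0020). CTSB was the gene with the 15th highest normalised count of the table after RETi, and its share of all counts went from 0.392% to 0.252%. Among the 1446 genes that fell it ranked 276th by size of the log2 fold change.

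CTSZ encodes cathepsin Z, a carboxypeptidase of the same protease family (ENSG00000101160, chromosome 20, 57570240 to 57582302). It stood at 8810 and 9169 normalised counts after RETi and at 6046 and 6319 after RETi + FGFRi. Both combination libraries lay below both RETi libraries, at a change of -0.54 on the log2 scale (edgeR, SE 0.077, adjusted p = 0.0011). The aspartic protease gene CTSD (ENSG00000117984, chromosome 11, 1773982 to 1785222) was at 30755 and 34421 after RETi and 26184 and 26818 after RETi + FGFRi. Its fall was smaller, with a change of -0.30 on the log2 scale (edgeR, SE 0.093, adjusted p = 0.038), and it did not pass without RETi replicate 1 or without RETi replicate 2, where the adjusted p reached 0.34.

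The fourth hydrolase gene that fell was ARSA, which encodes arylsulfatase A, the enzyme that removes sulfate from sulfatide (ENSG00000100299, chromosome 22, 51061182 to 51066607). Its normalised counts were 2319 and 2475 after RETi and 2051 and 1864 after RETi + FGFRi, a change of -0.29 on the log2 scale (edgeR, SE 0.081, adjusted p = 0.024). The groups did not overlap, yet the call was lost without either RETi replicate, without RETi + FGFRi replicate 2 and after removal of the length and GC trend described below (adjusted p up to 0.18).

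2 hydrolase genes rose. NEU1 encodes the lysosomal sialidase (ENSG00000204386, chromosome 6, 31825436 to 31830683). It stood at 7099 and 7225 normalised counts after RETi and at 8890 and 8990 after RETi + FGFRi. The replicates nearly coincided, and the change was 0.32 on the log2 scale (edgeR, SE 0.076, adjusted p = 0.013). ASAH1 encodes acid ceramidase, which splits ceramide into sphingosine and a fatty acid (ENSG00000104763, chromosome 8, 17913934 to 17942494). It was at 6827 and 6553 after RETi and at 8043 and 8545 after RETi + FGFRi, a change of 0.31 on the log2 scale (edgeR, SE 0.077, adjusted p = 0.017). Neither NEU1 nor ASAH1 passed without RETi replicate 1 or without RETi replicate 2, where the highest adjusted p was 0.12 for NEU1 and 0.16 for ASAH1.

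Of 18 tested genes for hydrolases and their cofactors, 4 thus fell (22.2%), 2 rose (11.1%) and 12 did not pass, with a median log2 fold change of -0.070. Over all tested genes 11.3% fell and 12.8% rose. Within the hydrolase group the 7 tested proteases (CTSA, CTSB, CTSD, CTSH, CTSO, CTSZ and TPP1) held 3 falls (42.9%) and no rise. The 7 glycosidases (GAA, GLA, GLB1, GUSB, HEXA, NAGLU and NEU1) held 1 rise (14.3%) and no fall. The division into proteases and glycosidases was not planned, and whether these splits differ was not tested. In the wider list described below, the protease genes CTSC, CTSK, CTSL, CTSS, LGMN and SCPEP1 did not pass. Of its glycosidase genes FUCA1 fell (-0.34 on the log2 scale), IDUA rose (0.31) and no other passed. The summed normalised counts of the hydrolase group were 317621 and 325913 after RETi and 279412 and 282654 after RETi + FGFRi. Without CTSB the sums were 215026 and 223554 against 210447 and 216833, and the groups overlapped.

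Among hydrolase genes that did not pass, PSAP, which encodes the precursor of the saposin cofactors, was the most abundant per kb of transcript. Its normalised counts were 85052, 84666, 84382 and 88329 in the 4 libraries, a log2 fold change of 0.022 with a 95% interval from -0.19 to 0.23. The progranulin gene GRN had a log2 fold change of -0.087 (interval -0.29 to 0.11), and the gene of the tripeptidyl peptidase TPP1 one of 0.013 (-0.19 to 0.21). CTSA, the protective protein of the sialidase NEU1, stood at 14910 and 15376 normalised counts after RETi and 15405 and 15810 after RETi + FGFRi, and it did not pass (log2 fold change 0.041, interval -0.14 to 0.22). The interval of NEU1, from 0.15 to 0.48, overlaps those of PSAP, TPP1 and CTSA, and whether NEU1 differs from them was not tested. Changes within these intervals are not excluded with 2 libraries a group.

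The glycosidase genes other than NEU1 had log2 fold changes from -0.16 for GLA (alpha-galactosidase A) to 0.031 for HEXA (the alpha subunit of beta-hexosaminidase), with GUSB at -0.14, NAGLU at -0.082, GLB1 at -0.058 and GAA at -0.0012. Of the remaining cathepsins, CTSO had a log2 fold change of 0.11. CTSH was low, at 40.2 to 57.9 normalised counts, and its interval from -0.73 to 0.34 is wide. CTSF had 0 counts in all 4 libraries, which allows at most 3 counts in a library, and counting error is all that this limit covers. CTSV, the current name of CTSL2, was at 82.4 and 84.4 after RETi and 73.1 and 80.5 after RETi + FGFRi (log2 fold change -0.12, SE 0.18).

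**Figure D2:**
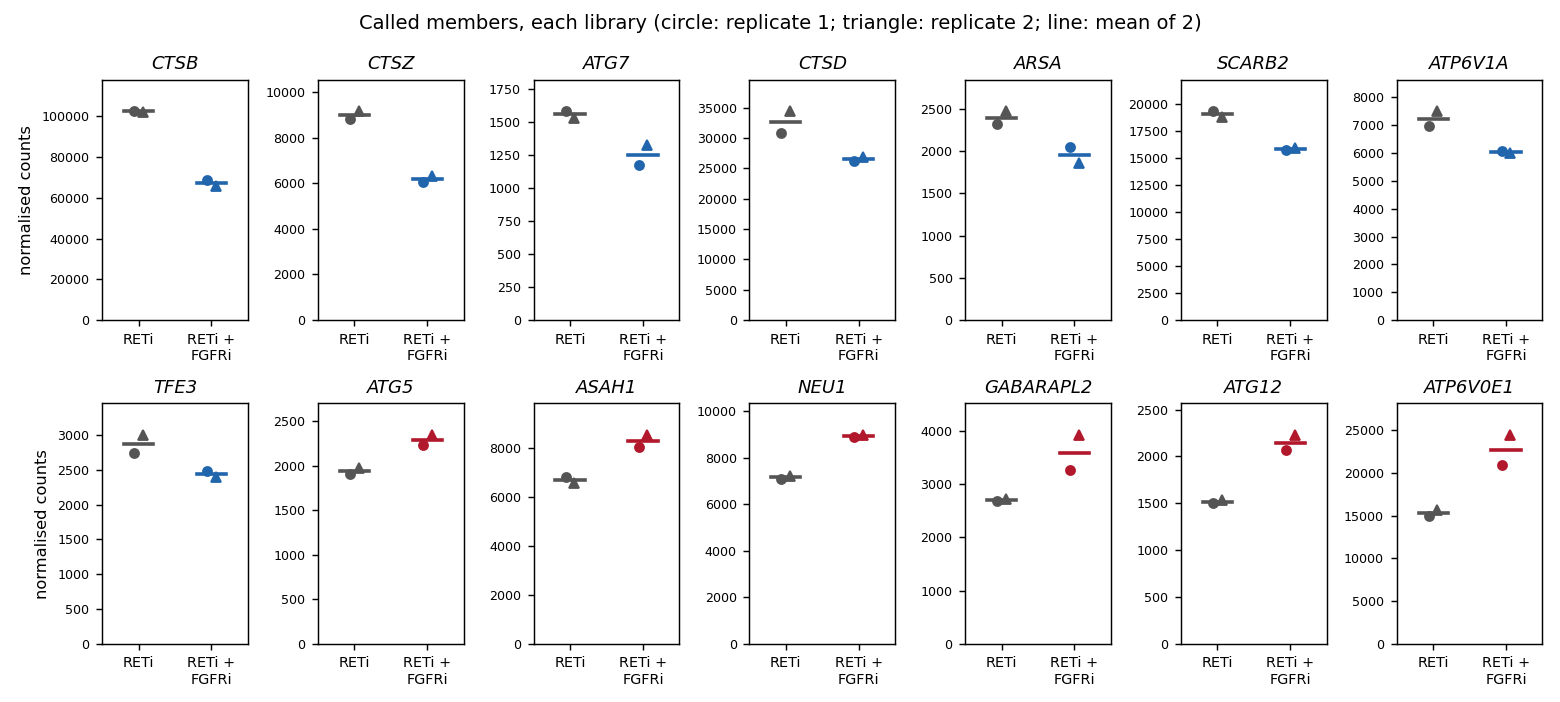
Normalised counts (y axes, from 0) of the 14 genes that passed, in each library after RETi and after RETi + FGFRi. Circles are replicate 1, triangles replicate 2 and lines the mean of 2. The groups do not overlap in any panel, which was so for 65.1% of all tested genes. Every gene that rose is highest in RETi + FGFRi replicate 2.

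The transcription factors of the MiT/TFE family were all somewhat lower in fitted value, and their calls were weak. TFE3 (ENSG00000068323, chromosome X, 48886242 to 48901012) stood at 2739 and 3002 normalised counts after RETi and at 2488 and 2402 after RETi + FGFRi. It lay just inside the threshold, with a change of -0.23 on the log2 scale (edgeR, SE 0.078, adjusted p = 0.0498), and it passed in only 3 of 12 alternative settings. TFEB was at 385 and 452 after RETi and 359 and 339 after RETi + FGFRi, a change of -0.27 on the log2 scale (edgeR, SE 0.11, adjusted p = 0.11). MITF was at 297 and 314 after RETi and 293 and 267 after RETi + FGFRi, a change of -0.13 on the log2 scale (edgeR, SE 0.12, adjusted p = 0.45). In each of the 3 genes the groups did not overlap, which was so for 65.1% of all tested genes. Per kb of transcript TFE3 was the most abundant of the 3 after RETi, with 872 normalised counts per kb against 179 for TFEB and 63.6 for MITF.

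Lysosomal membrane genes held 1 fall (16.7%) and no rise among 6 tested, beside 11.3% falls and 12.8% rises over all tested genes. SCARB2 encodes LIMP-2, the receptor that carries glucocerebrosidase to the lysosome (ENSG00000138760, chromosome 4, 77079890 to 77135046). Its normalised counts were 19301 and 18776 after RETi and 15752 and 15919 after RETi + FGFRi, a change of -0.27 on the log2 scale (edgeR, SE 0.082, adjusted p = 0.036). The call did not hold without RETi replicate 1 or RETi replicate 2 (adjusted p up to 0.27). LAMP1 and LAMP2, the main glycoproteins of the lysosomal membrane, had fitted values on opposite sides of 0. LAMP1 was at 15650 and 17101 after RETi and 14389 and 15539 after RETi + FGFRi (log2 fold change -0.13, interval -0.33 to 0.059).

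LAMP2 was at 12727 and 13132 after RETi and 14123 and 15820 after RETi + FGFRi (log2 fold change 0.21, adjusted p = 0.10, edgeR), and the tetraspanin gene CD63 at 27726 and 27652 after RETi and 29201 and 34476 after RETi + FGFRi (0.20, adjusted p = 0.17). For both genes RETi + FGFRi replicate 2 was the highest library, and both passed when RETi + FGFRi replicate 1 was left out. MCOLN1, the gene of the lysosomal calcium channel TRPML1, was at 900 and 898 normalised counts after RETi and 787 and 824 after RETi + FGFRi (-0.16 on the log2 scale, interval -0.34 to 0.014). CLN3, mutated in juvenile neuronal ceroid lipofuscinosis, was at 57.2 to 83.6 normalised counts with no order between the groups. The table holds another row named CLN3 that overlaps it and has 0 counts, so the level of CLN3 is uncertain.

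Of 5 tested V-ATPase subunits 1 rose (20%), 1 fell (20%) and 3 did not pass. Over all tested genes 12.8% rose and 11.3% fell. ATP6V0E1 encodes a small subunit of the membrane sector (ENSG00000113732, chromosome 5, 172410760 to 172462448). It rose from 14971 and 15646 normalised counts after RETi to 20907 and 24493 after RETi + FGFRi, a change of 0.56 on the log2 scale (edgeR, SE 0.095, adjusted p = 0.0026), the largest rise among the members. ATP6V1A encodes the catalytic subunit of the cytosolic sector (ENSG00000114573, chromosome 3, 113465866 to 113530903). It fell from 6969 and 7509 to 6080 and 6019, a change of -0.26 on the log2 scale (edgeR, SE 0.078, adjusted p = 0.033), and did not pass without either RETi replicate (adjusted p up to 0.27). ATP6V1B2, another subunit of the cytosolic sector, was at 5429 and 5307 after RETi and 4871 and 4814 after RETi + FGFRi, and at -0.15 on the log2 scale it did not pass (adjusted p = 0.16, edgeR). Nor did ATP6V1H of the same sector (-0.14) and ATP6V0D1 of the membrane sector (-0.063).

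In the autophagy group 3 genes rose (23.1%), 1 fell (7.69%) and 9 did not pass, with a median log2 fold change of -0.031. Over all tested genes 12.8% rose and 11.3% fell. ATG12 encodes a ubiquitin-like protein that is joined to ATG5 (ENSG00000145782, chromosome 5, 115163893 to 115177555). It stood at 1502 and 1530 normalised counts after RETi and at 2065 and 2231 after RETi + FGFRi, a change of 0.50 on the log2 scale (edgeR, SE 0.075, adjusted p = 0.0015). Its partner ATG5 (ENSG00000057663, chromosome 6, 106632351 to 106773666) was at 1910 and 1976 after RETi and 2236 and 2346 after RETi + FGFRi. That is a change of 0.23 on the log2 scale (edgeR, SE 0.073, adjusted p = 0.039), which passed in 5 of 12 alternative settings.

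ATG7 encodes the enzyme that activates ATG12 (ENSG00000197548, chromosome 3, 11313995 to 11599139), and it went the other way. It was at 1580 and 1530 normalised counts after RETi and 1174 and 1320 after RETi + FGFRi, a change of -0.32 on the log2 scale (edgeR, SE 0.081, adjusted p = 0.017). The call was lost without either RETi replicate or RETi + FGFRi replicate 1 (adjusted p up to 0.10). ATG12 overlaps AP3S1 and ATG7 overlaps VGLL4 in the deposited coordinates, and the use of strand in counting is not stated, so part of their counts is uncertain.

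Of the genes of ubiquitin-like proteins that sit on the autophagosome membrane, 1 of 4 passed, beside 24.1% of all tested genes. GABARAPL2 (ENSG00000034713, chromosome 16, 75600249 to 75611779) rose from 2683 and 2723 to 3264 and 3932 normalised counts, a change of 0.41 on the log2 scale (edgeR, SE 0.090, adjusted p = 0.0090), and did not pass without RETi replicate 2 (adjusted p = 0.053). GABARAPL1 was at 1033 and 935 after RETi and 815 and 872 after RETi + FGFRi (log2 fold change -0.22, adjusted p = 0.080, edgeR), and it passed once the length and GC trend was removed (adjusted p = 0.041). MAP1LC3B, the gene of LC3B, was at 3706 and 3771 after RETi and 3607 and 4061 after RETi + FGFRi (0.033, interval -0.14 to 0.21). GABARAP had a log2 fold change of -0.13, and its libraries overlapped. MAP1LC3B has a near-identical copy, MAP1LC3B2, and how shared reads were counted is not stated.

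The cargo receptor gene SQSTM1 (p62) was among the most abundant members and stood at 25996, 26080, 24327 and 26076 normalised counts in the 4 libraries. Its log2 fold change was -0.050 with an interval from -0.24 to 0.14, and its coordinates overlap those of MGAT4B. The initiation and membrane genes BECN1 (-0.031), UVRAG (-0.017), WIPI1 (-0.056) and the kinase gene ULK1 (0.069) had overlapping groups. ATG9A, which encodes a lipid scramblase carried on vesicles, had a log2 fold change of -0.19 (adjusted p = 0.097, edgeR).

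Of the 14 calls, CTSB, CTSZ, ATG12 and ATP6V0E1 passed in all 12 alternative settings. In these settings the log2 fold change ranged from -0.64 to -0.52 for CTSB, from -0.57 to -0.51 for CTSZ, from 0.37 to 0.56 for ATG12 and from 0.45 to 0.68 for ATP6V0E1. No called member changed sign.

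**Figure D3:**
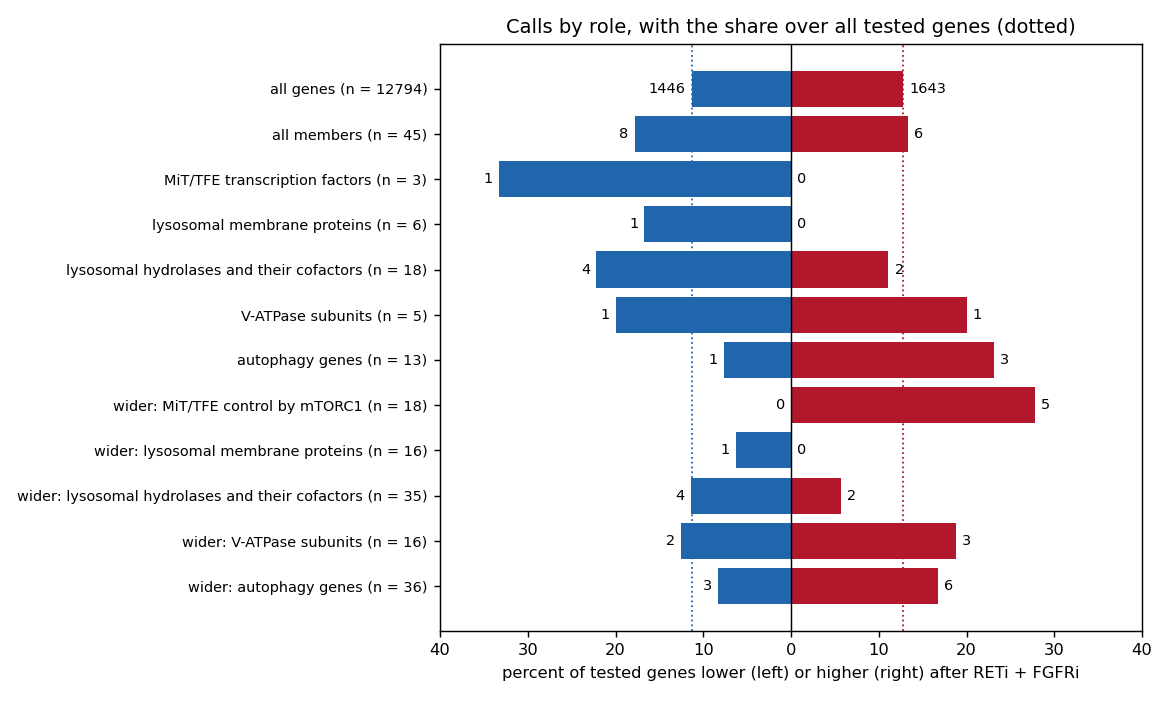
Percent of tested genes that fell (bars to the left) or rose (bars to the right) after RETi + FGFRi, by role, for the members and for a wider list of the same pathways, with gene counts at the bar ends. Dotted lines are the shares over all 12794 tested genes, 11.3% lower and 12.8% higher; the bars of small roles rest on 1 to 4 genes.

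A wider list of 127 other genes of these pathways was written by function, with earlier results of these data known. Of its 121 tested genes 16 rose, 10 fell and 95 did not pass (median log2 fold change -0.0014). That is 21.5% called, beside 24.1% of all tested genes. Fewer of them passed when either RETi replicate was left out, as was so over all genes. DESeq2 gave 15 rises and 4 falls in this list, beside 1331 and 1008 over all genes. Genes of mTORC1, of its placement at the lysosome and of its control held 5 rises (27.8%) and no fall among 18. Over all tested genes 12.8% rose and 11.3% fell. Of the 5 Ragulator subunits 3 rose, and the other rises were of RHEB (0.32 on the log2 scale) and TSC1 (0.34). LAMTOR3 rose from 2291 and 2362 to 3513 and 4129 normalised counts (0.71 on the log2 scale, edgeR, SE 0.086, adjusted p = 0.00050), and LAMTOR4 (0.50) and LAMTOR5 (0.42) rose too, the last not with the length and GC trend described below removed. LAMTOR1 (0.23, adjusted p = 0.073, edgeR) and LAMTOR2 (0.064, adjusted p = 0.61) did not pass.

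In the wider autophagy list 6 of 36 rose (16.7%) and 3 fell (8.33%), beside 12.8% and 11.3% of all tested genes. MAP1LC3C rose from 125 and 140 to 250 and 267 normalised counts (0.96 on the log2 scale, edgeR, SE 0.14, adjusted p = 0.0011), and ATG16L2 (0.71) and the membrane protein gene VMP1 (0.51) rose too. Other V-ATPase subunits again went both ways, with 3 rises (18.8%) and 2 falls (12.5%) among 16. ATP6V1G1 (0.62) and ATP6V1D (0.37), both of the cytosolic sector, rose. In the membrane sector ATP6V0B (0.25) rose, and ATP6V0A1 (-0.35) and ATP6V0E2 (-0.32) fell.

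Other hydrolases and sorting proteins held 2 rises (5.71%) and 4 falls (11.4%) among 35, beside 12.8% and 11.3% of all tested genes. The fucosidase gene FUCA1 fell from 4417 and 4245 to 3428 and 3434 normalised counts (-0.34 on the log2 scale, edgeR, SE 0.073, adjusted p = 0.0082), and ARSB had a log2 fold change of -0.26. IGF2R, a receptor that sorts hydrolases by mannose 6-phosphate, had one of 0.42, but its RETi libraries were unlike, at 5004 and 7163, and it did not pass without RETi replicate 1 (adjusted p = 0.36) or with DESeq2 (adjusted p = 0.26). Of 16 further membrane proteins only the channel gene TPCN1 passed (6.25%, beside 24.1% of all tested genes), with a log2 fold change of -0.34.

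Short transcripts were higher after RETi + FGFRi across the table. The 722 tested genes with a canonical transcript under 1 kb had a median log2 fold change of 0.23, and 33.5% of them rose. In the class of 1 to 1.5 kb the median was 0.084, and in the class over 4 kb it was -0.0011. GABARAPL2 (0.97 kb) and ATP6V0E1 (1.42 kb) lie in these short classes, as do LAMTOR4 (0.59 kb) and LAMTOR5 (0.62 kb). ATG12 (4.04 kb), ATG5 (3.185 kb), NEU1 (3.35 kb) and ASAH1 (2.78 kb) do not. The GC content of their transcripts was 36.1% for ATG12, 38.5% for ATG5, 52.1% for NEU1 and 39.7% for ASAH1. A trend with GC content alone was not examined. With the trend of each library with transcript length and GC content removed, GABARAPL2 stood at 0.22 and ATP6V0E1 at 0.46 on the log2 scale, both past the threshold, and 5 members rose and 7 fell. LAMTOR5 did not pass in that setting (adjusted p = 0.21, edgeR). Nor did the called members ATG5, ARSA and TFE3, whereas GABARAPL1 did. The part that length and GC content play in these values was not tested further.

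**Figure D4:**
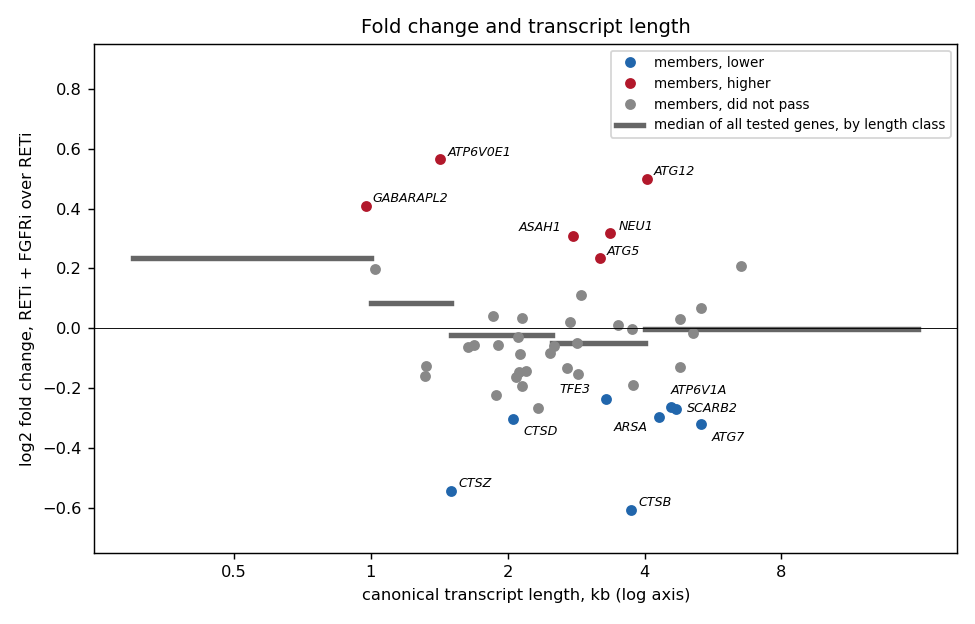
Log2 fold change (y axis) against canonical transcript length in kb (log axis) for the 45 tested members, colored by call. Thick grey bars are medians over all tested genes in 5 length classes, from 0.23 under 1 kb to -0.049 at 2.5 to 4 kb; CTSB and CTSZ lie below the bars of their classes, and ATG12, NEU1 and ASAH1 above.

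Promoter sequences are shown because MiT/TFE factors are known to bind a short motif near the start of many lysosome genes. In the RefSeq promoter table (GRCh38.p14, 250 bases before to 50 after the gene start), 33 of the 46 matched names had an entry. The called members CTSB, ARSA, ASAH1, ATP6V0E1 and ATP6V1A had none. The motif TCACGTG, the core of the CLEAR element to which TFEB binds, was searched on both strands. Each match also holds the E-box CACGTG, which reads the same on both strands. The core was found in 9 of the 33 member promoters (27.3%) and in 3.71% of all 35116 promoters of the table, and the E-box in 27.3% and 7.26%. All 9 were genes of the lysosome (3 membrane proteins, 5 hydrolases and 1 V-ATPase subunit), and none of the 12 autophagy promoters and none of the 3 MiT/TFE promoters held it. The gene among them without a test is CTSF. Windows around the first core are shown for the 8 that were tested, 5′ to 3′ on the gene's strand, with the core in capitals on either strand.
LAMP1 (chr13:113297026-113297072, plus strand): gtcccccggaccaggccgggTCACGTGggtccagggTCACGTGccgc
MCOLN1 (chr19:7522562-7522608, plus strand): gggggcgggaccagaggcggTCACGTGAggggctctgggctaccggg
CLN3 (chr16:28492083-28492124, minus strand): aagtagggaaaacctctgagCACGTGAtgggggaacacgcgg
CTSA (chr20:45891272-45891318, plus strand): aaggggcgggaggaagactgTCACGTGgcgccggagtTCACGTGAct
CTSD (chr11:1763948-1763994, minus strand): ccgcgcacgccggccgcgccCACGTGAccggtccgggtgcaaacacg
GAA (chr17:80101484-80101530, plus strand): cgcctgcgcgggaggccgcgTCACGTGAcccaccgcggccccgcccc
NEU1 (chr6:31862922-31862968, minus strand): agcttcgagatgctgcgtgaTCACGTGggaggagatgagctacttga
ATP6V0D1 (chr16:67481191-67481237, minus strand): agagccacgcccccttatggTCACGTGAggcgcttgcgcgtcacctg

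Genes with the core did not share a direction. Of these 8, CTSD fell, NEU1 rose and 6 did not pass, and their log2 fold changes ran from -0.30 to 0.32 with a median of -0.060. The 24 tested members with an entry and no core ran from -0.54 to 0.50 with a median of -0.11, of which 3 rose and 4 fell. Over all tested genes 12.8% rose and 11.3% fell. Whether members with and without the core differ was not tested. CTSB and ATP6V0E1, the largest fall and the largest rise among the members, had no entry and are in neither range. LAMP1, whose promoter holds 6 copies of the E-box, had a log2 fold change of -0.13 that did not pass. A match of letters is a description and not a measured binding site.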

How the data were processed

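RNA was sequenced from TPC1 cells in 2 groups of 2 libraries, grouped and numbered by the labels. Per the labels, reads were single-end and 50 bp long. STAR 2.3, DESeq2 and the build hg19 are named in the submitters' processing notes. The methods of the study describe paired-end reads and a later STAR release, and which applies is not settled. How reads were counted, with or without strand and shared reads, was not given in the sources used here. Deposited values are raw counts for each gene and normalised counts, a signal that the authors made by dividing raw counts by 1 factor per library. Columns of the authors' own comparison (fold changes, p-values) were not used. Totals were 24695040 to 27457040 counts, and intervals and limits on 0 counts cover counting error only where counts alone give them.

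The main test used edgeR 4.0.16 under R 4.3.3 on raw counts (TMM, filterByExpr with a minimum of 10 reads, quasi-likelihood F-test, no covariates, all 4 libraries), with Benjamini-Hochberg adjustment over 12794 genes. The SE is the log2 fold change divided by the square root of F, and 95% intervals use 2 residual and 8.96 prior degrees of freedom. The scripts were tested on simulated data. Libraries of a group differed by more than sampling noise (chi-square per degree of freedom 7.91 for RETi and 14.0 for RETi + FGFRi) and were not merged. Levels between genes are per kb of the Ensembl canonical transcript (GENCODE v44), matched by Ensembl ID for 98.7% of tested genes and all 45 tested members.

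All members are accounted for. Per-library values were given for the MiT/TFE factors, the 3 members of each role with the smallest p, and members with a called change over 0.5. From the wider list the 3 genes with the smallest p in each role were eligible. Other members given per library, and LAMTOR1, LAMTOR2, ATP6V0B, ATP6V0E2, RHEB and TSC1, were chosen after their values were seen. So were IDUA and the protease genes named from the wider list. Members and lists were chosen with earlier results of these data known. No table of proteins was used, so a planned comparison of protein sequences was not run.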

Additional observations from a re-analysis of the deposited data

How the results depend on the processing

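Alternatives were DESeq2 size factors, upper quartile factors or library totals alone in edgeR, no filter or a mean of at least 50 counts, DESeq2 1.42.0, the replicate number as a block, each library left out in turn and, chosen after seeing the data, removal of the length and GC trend. With a library left out, members that rose numbered 2 to 8 and members that fell 2 to 7, in all genes 691 to 1942 and 553 to 1503, and in the wider list 9 to 22 and 1 to 11. With DESeq2 4 genes of the wider list fell. The labels give both groups the same replicate numbers, but deviations of same-numbered libraries correlated at 0.026 over 12794 genes and there are only 2 pairs, so the numbers were not taken as pairs. With the replicate block 6 members rose and 8 fell, the same 14 genes, and over all genes 2041 rose and 1738 fell.

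No called member changed sign in the 12 alternatives, and 12 of the 31 that did not pass did. GAA was at 0.0069 with DESeq2 size factors and with DESeq2, 0.0018 with upper quartile factors, 0.0047 with a mean of at least 50 counts, 0.0023 with the replicate block and 0.11 with the length and GC trend removed (log2 fold changes). With library totals alone PSAP was at -0.0071 and TPP1 at -0.015. With the length and GC trend removed SQSTM1 was at 0.032, MAP1LC3B at -0.022 and UVRAG at 0.040. With a library left out, log2 fold changes ran from -0.28 to 0.040 for GABARAP, -0.094 to 0.0032 for SQSTM1, -0.051 to 0.21 for ULK1, -0.011 to 0.083 for HEXA, -0.0043 to 0.059 for PSAP, -0.048 to 0.12 for MAP1LC3B, -0.17 to 0.074 for WIPI1, -0.12 to 0.062 for BECN1, -0.35 to 0.19 for CLN3, -0.093 to 0.13 for TPP1, -0.049 to 0.025 for UVRAG and -0.097 to 0.11 for GAA. A fit without a library leaves 1 in its group, which is assumed to vary like the other group. The smallest member change that passed was 0.23 in size on the log2 scale, though whether a change passes also depends on the error of the gene. Levels of transcripts say nothing of protein, lysosome number or autophagic flux.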
